A study of Homo sapiens with 6 samples.

Results

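The class I histone deacetylases are the 4 enzymes HDAC1, HDAC2, HDAC3 and HDAC8, which were taken by gene symbol from the 62696 genes counted in each library. The cells were 12Z, an established line of human endometriosis epithelial cells labelled p40, and RNA was taken 72 h after lipid transfection of small interfering RNA (siRNA). The 6 libraries comprised 3 from cells given 1 siRNA against the long non-coding RNA LINC01638 (named LINC01638_2 in the labels; libraries A, B and C) and 3 from cells transfected with a control siRNA (also A, B and C). Both groups received the same transfection reagent and culture medium with fetal calf serum. Ribosomal RNA was depleted from total RNA, and paired reads of 50 bases kept the strand of each transcript. The series title names HDAC1 as a gene that LINC01638 suppresses, so the comparison asked which of the class I genes differed between the siRNAs and how their balance shifted. The labels do not say that the replicates were separate cultures, so the p-values rest on a spread between libraries that may be technical only, and with 1 siRNA and no rescue the effects of the siRNA and of losing its target cannot be told apart.

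Class I histone deacetylases are zinc-dependent enzymes, mostly nuclear, that remove acetyl groups from lysines of histones and other proteins, which generally makes chromatin less permissive for transcription. HDAC1 and HDAC2 are close paralogues that act as catalytic subunits of the NuRD, SIN3, CoREST and MiDAC corepressor complexes, alone or together in 1 complex, and each can partly stand in for the other. HDAC3 is the catalytic subunit of the NCoR corepressor complex and is active only when bound to the deacetylase-activating domain of its corepressor. HDAC8 works outside these complexes and deacetylates the cohesin subunit SMC3. In endometriosis these enzymes have drawn interest because deacetylase inhibitors change gene expression and growth of endometriotic cells in culture.

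The stretches of genome just upstream of 1 annotated start per gene are set side by side. They are given for the members with sequence outside annotated exons in the 250 bases before the RefSeq start (GRCh38.p14), 5′ to 3′ on the strand of the gene, with capitals marking CCAAT (the core of the NF-Y site) and GGGCGG (the core of the Sp1 site) on either strand. The first is the whole window of HDAC1, chr1:32291833-32292082 on the plus strand, the second 113 bases of the HDAC2 window, chr6:113971286-113971398 on the minus strand, and the third 79 bases of the HDAC3 window, chr5:141636871-141636949 on the minus strand.
HDAC1 upstream: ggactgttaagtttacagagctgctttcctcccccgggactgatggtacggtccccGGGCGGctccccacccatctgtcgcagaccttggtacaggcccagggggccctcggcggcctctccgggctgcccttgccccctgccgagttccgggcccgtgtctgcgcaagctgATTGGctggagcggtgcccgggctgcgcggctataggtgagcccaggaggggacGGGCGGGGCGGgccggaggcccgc
HDAC2 upstream: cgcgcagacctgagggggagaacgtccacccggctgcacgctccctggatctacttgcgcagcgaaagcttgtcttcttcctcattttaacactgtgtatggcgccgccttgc
HDAC3 upstream: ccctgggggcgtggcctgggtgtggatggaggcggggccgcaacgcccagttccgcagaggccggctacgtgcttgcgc
The HDAC1 window held 1 copy of the first motif, in reverse complement, and 3 copies of the second, of which 2 overlap next to the start. Neither motif occurred in the whole windows of HDAC2 and HDAC8, and the HDAC3 window held 1 copy of the second, in the portion that is also annotated exon.

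Such motifs are common before genes. Of 35116 RefSeq windows of the same length, 32.0% held the first motif, 42.6% held the second and 13.9% held at least 3 copies of the second. The TATA box (TATAAA) and the E-box CACGTG, searched on both strands and held by 10.7% and 6.35% of the windows, were found in none of the 4. The GC content came to 71.6% for the HDAC1 window, 63.2% for that of HDAC2, 70.8% for that of HDAC3 and 48% for that of HDAC8.

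Counts of close paralogues can be mixed where reads match both, so the coding sequences of the members were aligned. HDAC1 and HDAC2 were the most alike pair, with 1093 of 1441 aligned coding bases identical (75.9%). The other 5 pairs shared 59.8% to 67.4%. The 60-base stretch in which HDAC1 and HDAC2 differ least lies near the start of both coding sequences, at coding bases 37 to 96 of HDAC1 (chromosome 1) and 40 to 99 of HDAC2 (chromosome 6), and capitals mark its 7 differing bases.
HDAC1 coding: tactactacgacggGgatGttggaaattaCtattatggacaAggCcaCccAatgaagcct
HDAC2 coding: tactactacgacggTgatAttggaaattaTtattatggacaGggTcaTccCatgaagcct
Even here the longest identical run was shorter than a read: over the whole alignment it was 17 bases. No 50-base window of any member's annotated transcripts occurred in another member. Windows found in no other gene's transcripts made up 99.8% for HDAC1 and for HDAC2, 92.7% for HDAC3 and 94.7% for HDAC8. The processed pseudogenes HDAC1P2 and HDAC1P1 had at most 8 and 2 counts in any library, against 4946 or more for HDAC1.

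The 6 libraries held 45617234 to 58148664 strand-specific counts. LINC01638 itself stood at 2.11 ± 0.163 CPM with LINC01638 siRNA and 7.70 ± 0.0943 CPM with control siRNA (CPM, counts scaled to library size with TMM factors; SD, n = 3 each), and so followed the labels. Reads in no annotated exon of the counted strand were 15.1%, 12.3% and 12.1% of mapped reads in LINC01638 siRNA libraries A, B and C. In control siRNA libraries A, B and C they were 8.32%, 9.18% and 10.1%. They include reads in exons on the opposite strand, and their part in the differences given here was not tested. Of 8 epithelial markers, 6 reached a mean of 1 CPM over the 6 libraries (EPCAM and CLDN4 did not), and the summed level of the list was 3197 to 3723 CPM with LINC01638 siRNA and 5194 to 5639 CPM with control siRNA, which KRT8, KRT18 and KRT19 dominate. In the edgeR test 6 of the 8 passed lower, CLDN4 did not pass, and EPCAM passed higher, at 1.38 ± 0.201 CPM with LINC01638 siRNA and 0.377 ± 0.0682 CPM with control siRNA. Of 5 endometrial epithelial markers 2 reached 1 CPM (ESR1, PGR and FOXA2 did not), and the list summed to 3.72 to 4.43 CPM with LINC01638 siRNA and 6.62 to 7.03 CPM with control siRNA; 3 passed lower and none higher. Of 6 stromal markers 5 did (DES did not), with sums of 511 to 527 CPM with LINC01638 siRNA and 649 to 732 CPM with control siRNA; 4 passed lower, and PDGFRA and DES passed higher. Of 4 endothelial markers 3 did (PECAM1 did not), with sums of 10.3 to 12.4 CPM with LINC01638 siRNA and 12.6 to 15.3 CPM with control siRNA. That lower sum comes from KDR, at 8.0 ± 1.28 CPM with LINC01638 siRNA and 12.3 ± 1.57 CPM with control siRNA, while CDH5 (log2 fold change 0.77) and VWF (0.86) passed higher. VWF was low, at 1.46 ± 0.402 CPM with LINC01638 siRNA and 0.805 ± 0.229 CPM with control siRNA. Its call was lost without LINC01638 siRNA library C (edgeR adjusted p = 0.0554). Of 4 immune markers CD14 alone did, with sums of 34.5 to 35.6 CPM with LINC01638 siRNA and 46.5 to 53.5 CPM with control siRNA. The immune markers PTPRC, CD68 and CD3E stayed below 1 CPM, and 1 of them was 0 in every library. For CD68 a low count says little, because 81.7% of its exon bases are shared with another gene on its strand. Over all genes tested, 26.3% passed higher and 29.6% lower. The part of these marker shifts in the differences given here was not tested. In bulk RNA, fewer cells of a type and less RNA per cell cannot be told apart.

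All 4 class I genes passed the edgeR threshold of adjusted p = 0.05, 3 higher (HDAC1, HDAC8 and HDAC2) and 1 lower (HDAC3) with LINC01638 siRNA. The threshold was passed by 56.0% of the 18569 genes tested, 26.3% higher and 29.6% lower, so that a passing call was the commoner outcome for any gene. None of the 4 had overlapping groups, and neither did 61.5% of all genes tested. The members differed from each other in size and direction of change more than in whether they passed, and HDAC1 stood apart from the other 3 in size.

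HDAC1 (ENSG00000116478.12, chromosome 1, 32292086 to 32333635, plus strand, 10 annotated transcripts) had 12908, 12082 and 14490 counts in LINC01638 siRNA libraries A, B and C and 6228, 4946 and 5907 counts in control siRNA libraries A, B and C. Scaled for depth these were 237, 233 and 241 CPM with LINC01638 siRNA, against 117, 113 and 111 CPM with control siRNA. Every LINC01638 siRNA library lay far above every control library, with little spread inside either group. The mean was 237 ± 4.25 CPM with LINC01638 siRNA and 114 ± 2.80 CPM with control siRNA (SD, n = 3 each), a rise of 2.08-fold (log2 fold change 1.06, 95% interval 0.96 to 1.15, edgeR adjusted p = 8.51e-13). A rise of at least 2-fold past the threshold was seen for 5.35% of genes tested, and 5.00% had a larger log2 fold change than HDAC1. By mean CPM, 6.38% of genes tested were more abundant.

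HDAC2 (ENSG00000196591.12, chromosome 6, 113933028 to 114011308, minus strand, 17 annotated transcripts), the paralogue that shares complexes with HDAC1, rose by much less. Its counts were 9932, 9459 and 10995 in LINC01638 siRNA libraries A, B and C, or 182, 182 and 183 CPM, against 8416, 6158 and 8019 counts, or 158, 141 and 151 CPM, in control siRNA libraries A, B and C. The LINC01638 siRNA libraries were nearly equal, and most of the spread came from the control libraries, of which library B was lowest. Mean levels were 182 ± 0.507 CPM with LINC01638 siRNA and 150.0 ± 8.53 CPM with control siRNA, 1.21-fold higher (log2 fold change 0.28, 95% interval 0.18 to 0.38, edgeR adjusted p = 6.82e-05). Among all genes tested, 28.0% had a larger log2 fold change.

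HDAC3 (ENSG00000171720.10, chromosome 5, 141620876 to 141636870, minus strand, 16 annotated transcripts) was the member that fell. It had 3123, 3268 and 3868 counts in LINC01638 siRNA libraries A, B and C, or 57.2, 62.9 and 64.3 CPM, against 4503, 3495 and 4179 counts, or 84.5, 80.0 and 78.8 CPM, in control siRNA libraries A, B and C. Every LINC01638 siRNA library was below every control library, and the lowest was library A. Levels averaged 61.5 ± 3.76 CPM with LINC01638 siRNA and 81.1 ± 3.01 CPM with control siRNA, 1.32-fold lower (log2 fold change −0.40, 95% interval −0.51 to −0.29, edgeR adjusted p = 2.80e-06). Of all genes tested, 21.2% had a more negative log2 fold change.

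HDAC8 (ENSG00000147099.21, X chromosome, 72329516 to 72573199, minus strand, 60 annotated transcripts) was the least abundant and the most variable member. Its 874, 666 and 716 counts in LINC01638 siRNA libraries A, B and C came to 16.0, 12.8 and 11.9 CPM, and its 500, 390 and 524 counts in control siRNA libraries A, B and C to 9.38, 8.93 and 9.88 CPM. LINC01638 siRNA library A, which also had the largest share of reads outside exons of the counted strand, was the highest, and the groups did not overlap. The mean was 13.6 ± 2.16 CPM with LINC01638 siRNA and 9.40 ± 0.475 CPM with control siRNA, 1.44-fold higher (log2 fold change 0.53, 95% interval 0.33 to 0.72, edgeR adjusted p = 0.000146). Without LINC01638 siRNA library A the log2 fold change was 0.39 (edgeR adjusted p = 0.00126). Of the exon bases of HDAC8, 5.19% are shared on the same strand with an overlapping gene, ENSG00000285547, which had 0 to 2 counts per library.

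**Figure D1:**
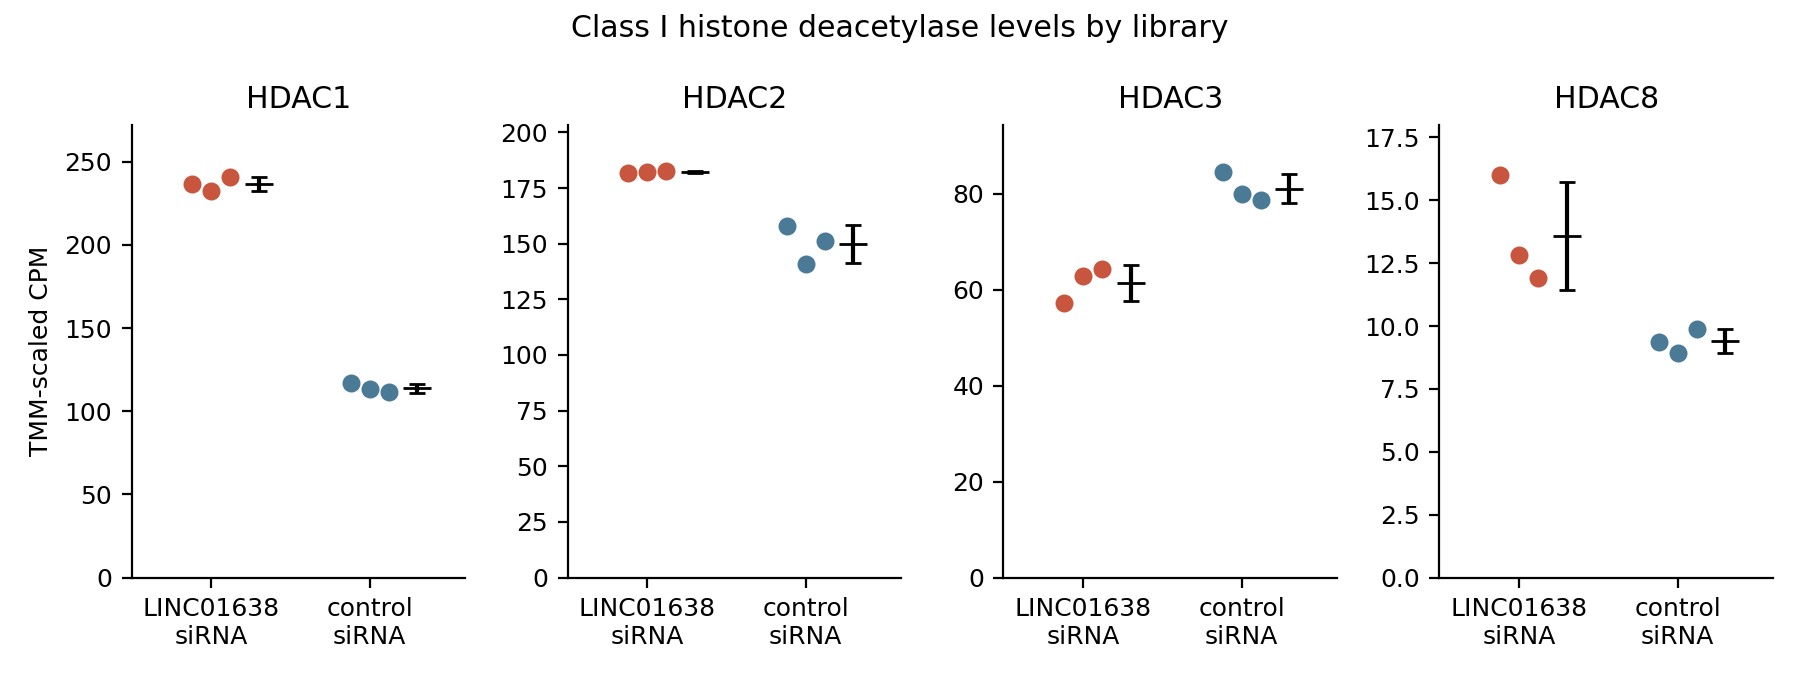
Levels of the 4 class I histone deacetylase genes in TMM-scaled CPM (vertical axes, starting at 0, 1 scale per gene), with 1 point per library and the mean ± SD (n = 3) to the right of each group. HDAC1 lies at 233 to 241 CPM with LINC01638 siRNA and 111 to 117 CPM with control siRNA, HDAC3 lies at 57.2 to 64.3 CPM with LINC01638 siRNA and 78.8 to 84.5 CPM with control siRNA, and the groups overlap for none of the 4 genes.

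To set the members beside each other, each level was divided by the length in kb of all annotated exons of the gene, merged. On this scale HDAC1 stood at 59.7 ± 1.07 CPM per kb with LINC01638 siRNA and 28.7 ± 0.706 CPM per kb with control siRNA (SD, n = 3 each). HDAC3 stood at 13.3 ± 0.813 with LINC01638 siRNA and 17.5 ± 0.649 with control siRNA, and HDAC2 at 11.8 ± 0.0328 with LINC01638 siRNA and 9.70 ± 0.552 with control siRNA. For HDAC8 the level was 0.591 ± 0.0938 with LINC01638 siRNA and 0.409 ± 0.0207 with control siRNA. In both groups the order was HDAC1, HDAC3, HDAC2, HDAC8, and within each group the libraries of neighbours in this order did not overlap. The order depends on the length used, because the merged exons of HDAC2 span 15461 bases while its coding sequence spans 1464. By coding length HDAC1 led with LINC01638 siRNA, at 163.7 CPM per kb of coding sequence against 124.5 for HDAC2, whereas HDAC2 led with control siRNA, at 102 against 78.7 for HDAC1.

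The summed level of the class was higher with LINC01638 siRNA. It came to 84.5, 84.6 and 87.1 CPM per kb of merged exons in LINC01638 siRNA libraries A, B and C and 58.4, 55.4 and 55.3 CPM per kb in control siRNA libraries A, B and C. The means were 85.4 ± 1.45 CPM per kb with LINC01638 siRNA and 56.4 ± 1.74 CPM per kb with control siRNA, a ratio of 1.52 (log2 difference 0.60, two-sided exact permutation p = 0.1, the lowest that 3 libraries against 3 can reach). The gain of HDAC1 equalled 107% of the gain of the total per kb of merged exons and 113% by the longest transcript, where the other 3 members added up to a net loss. By coding length it equalled 89.4% and with no length 87.9%, so that the other 3 then added up to a net gain.

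Shares of the total do not depend on library size. HDAC1 made up 70.6%, 69.4% and 69.9% of the class total in LINC01638 siRNA libraries A, B and C, against 50.5%, 51.6% and 50.8% in control siRNA libraries A, B and C. HDAC3 made up 14.6%, 16.1% and 16.0% with LINC01638 siRNA, against 31.3%, 31.2% and 30.8% with control siRNA. Thus the share of HDAC1 was larger by 19.0 percentage points and that of HDAC3 smaller by 15.5. Each difference was far beyond the SD within a group, which was at most 0.801 points. HDAC2 had 13.9%, 13.9% and 13.6% with LINC01638 siRNA, against 17.5%, 16.5% and 17.7% with control siRNA, a smaller share although its level was higher. HDAC8 had 0.693% ± 0.118 with LINC01638 siRNA and 0.726% ± 0.0441 with control siRNA, and its groups overlapped (exact two-sided permutation p = 0.8). For the other 3 shares the exact two-sided permutation p was 0.1, the smallest possible, or 0.133 adjusted over the 4 shares.

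Ratios between members within a library give the balance of the paralogues, and gene length cancels in their group difference. The ratio of HDAC1 to HDAC2 per kb of merged exons was 5.07, 4.98 and 5.14 in LINC01638 siRNA libraries A, B and C, against 2.89, 3.13 and 2.87 in control siRNA libraries A, B and C, a log2 difference of 0.77. For HDAC1 to HDAC3 the mean ratio was 4.51 with LINC01638 siRNA and 1.64 with control siRNA, a log2 difference of 1.46, the largest of the 6 pairs. HDAC2 to HDAC3 averaged 0.890 with LINC01638 siRNA and 0.554 with control siRNA, a log2 difference of 0.68. Relative to HDAC8, HDAC1 was higher by 0.54 and HDAC3 lower by 0.92 on the log2 scale with LINC01638 siRNA. These 5 ratios did not overlap between the groups (exact two-sided permutation p = 0.1 each, 0.12 adjusted over 6 pairs). HDAC2 to HDAC8 averaged 20.3 ± 3.05 with LINC01638 siRNA and 23.8 ± 1.16 with control siRNA and overlapped (log2 difference −0.24, exact two-sided permutation p = 0.2).

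**Figure D2:**
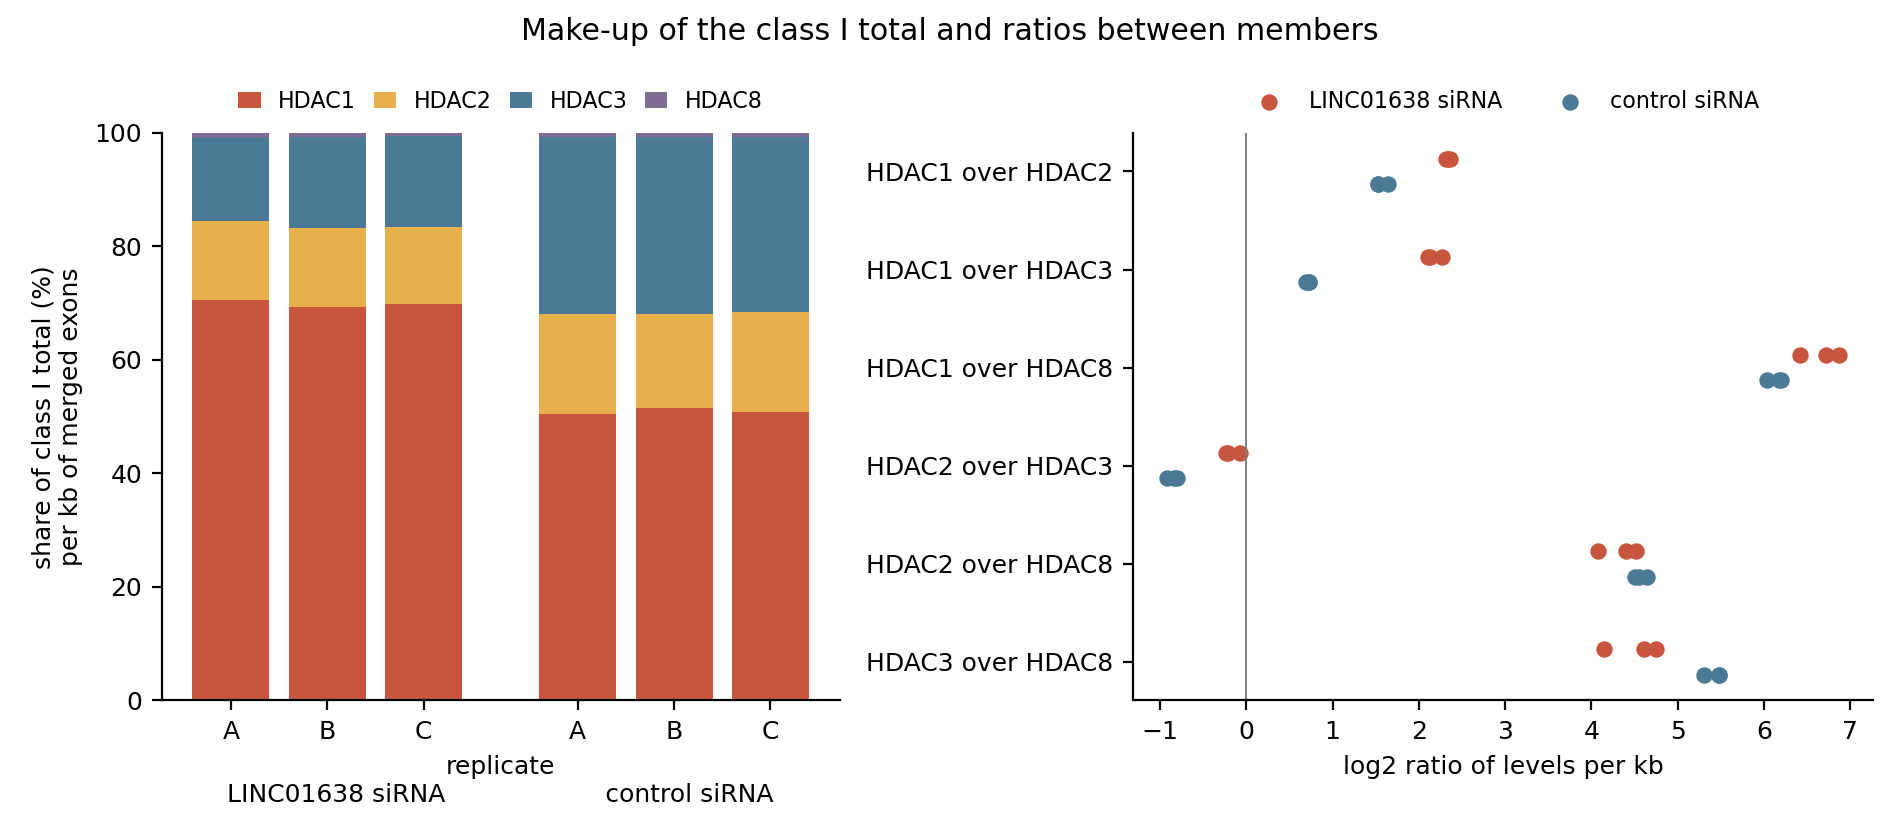
Left, share of each member in the class I total (percent, levels per kb of merged exons), 1 stacked bar per library; right, log2 ratio of the levels per kb of each pair of members, 1 point per library. HDAC1 fills 69.4% to 70.6% of the bar with LINC01638 siRNA and 50.5% to 51.6% with control siRNA, and the points of the groups are apart for every pair except HDAC2 over HDAC8.

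How large these shares are depends on the length, and their direction does not, for HDAC1, HDAC2 and HDAC3. By coding length HDAC1 made up 47.2% of the class total with LINC01638 siRNA and 31.3% with control siRNA, by the longest transcript 65.3% with LINC01638 siRNA and 44.8% with control siRNA, and with no length 47.9% with LINC01638 siRNA and 32.1% with control siRNA. HDAC2, the largest share by coding length with control siRNA, had 35.9% with LINC01638 siRNA and 40.7% with control siRNA on that scale. The ratio of the class totals was 1.38 by coding length, 1.43 by the longest transcript and 1.39 with no length.

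The zinc-dependent deacetylases of classes II and IV, which include the nucleocytoplasmic HDAC4, HDAC5, HDAC7 and HDAC9 and the cytoplasmic tubulin deacetylase HDAC6, did not move one way. Of the 7, 3 passed higher, 3 lower and 1 did not pass, against 26.3% higher and 29.6% lower of all genes tested. Their median log2 fold change was −0.01, against 0.00 over all genes tested. HDAC9 stood at 16.3 ± 0.631 CPM with LINC01638 siRNA and 6.61 ± 0.439 CPM with control siRNA (log2 fold change 1.30). HDAC6 stood at 41.0 ± 1.17 CPM with LINC01638 siRNA and 66.6 ± 0.471 CPM with control siRNA (−0.70), and HDAC4 at 18.3 ± 0.890 CPM with LINC01638 siRNA and 31.2 ± 0.495 CPM with control siRNA (−0.77). The other 4, given after their values were seen to complete the set, were HDAC10 (0.53, with 55.8% of its exon bases shared with another gene on its strand), HDAC5 (0.42), HDAC7 (−0.01, edgeR adjusted p = 0.872) and HDAC11 (−0.72). Thus HDAC9 rose by more than HDAC1 on the log2 scale, from a lower level. Class I made up 72.3% ± 0.103 of the summed level of all 11 zinc-dependent deacetylases with LINC01638 siRNA and 62.7% ± 0.617 with control siRNA (per kb of merged exons; exact two-sided permutation p = 0.1). HDAC1 alone made up 50.6% ± 0.399 with LINC01638 siRNA and 32.0% ± 0.0603 with control siRNA on that scale. The size of these shares depends on the length used. By coding length HDAC1 made up 36.7% with LINC01638 siRNA and 22.0% with control siRNA, and class I 77.8% and 70.3%. With no length HDAC1 made up 29.8% with LINC01638 siRNA and 17.1% with control siRNA, and class I 62.3% and 53.3%.

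Sirtuins, deacylases that use NAD+ and are not related to the zinc-dependent enzymes, passed higher in 1 of 7 cases and lower in 3 (median −0.08). With 7 genes this cannot be set apart from all genes tested, of which 26.3% passed higher and 29.6% lower. The nuclear SIRT1 was higher, at 38.1 ± 1.17 CPM with LINC01638 siRNA and 29.9 ± 0.228 CPM with control siRNA (log2 fold change 0.35). The mitochondrial SIRT5 (−1.02) and SIRT3 (−0.59) were lower.

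**Figure D3:**
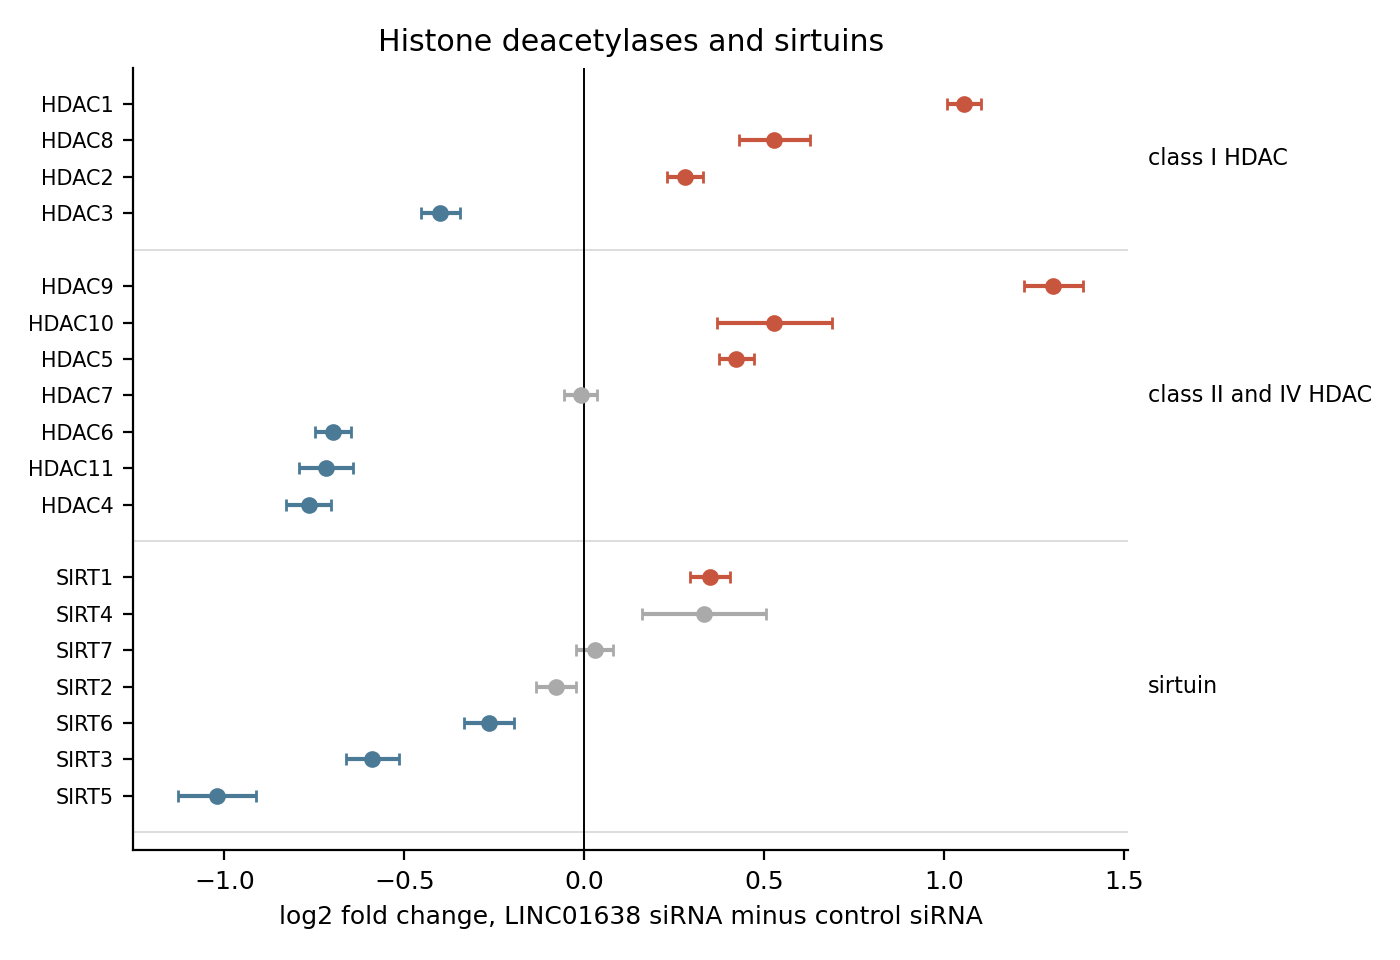
Log2 fold change, LINC01638 siRNA minus control siRNA, of the class I and the class II and IV histone deacetylases and the sirtuins (points; bars are ± 1 SE from edgeR). Genes past the threshold are red where higher and blue where lower with LINC01638 siRNA, and grey genes did not pass; HDAC1 (1.06) lies highest in class I and HDAC9 (1.30) highest of all.

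The subunits through which class I enzymes reach chromatin were followed complex by complex. Together 42 subunits of NuRD, SIN3, CoREST, MiDAC and NCoR were followed, of which 14 passed higher, 16 lower and 12 did not pass, with a median log2 fold change of −0.03. Of all genes tested 26.3% passed higher and 29.6% lower, and neither direction prevailed among the subunits. With library totals in place of TMM, which shifted the median of all genes by 0.10, 18 passed higher and 12 lower. None of these 42 changed as much as HDAC1, and their log2 fold changes ran from −0.61 to 0.61.

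NuRD couples HDAC1 and HDAC2 to a chromatin remodeller, and 4 of its 12 other subunits passed higher and 4 lower (median 0.00). MTA1, a scaffold that holds the deacetylase, stood at 74.7 ± 0.817 CPM with LINC01638 siRNA and 94.8 ± 2.08 CPM with control siRNA (log2 fold change −0.34). The methyl-CpG-binding subunit MBD2 was also lower (−0.34), and the zinc finger subunit GATAD2A was higher (0.30). The other MTA subunits, MTA2 and MTA3, given after their values were seen, did not pass. MTA2 was more abundant than MTA1, at 225 ± 7.24 CPM with LINC01638 siRNA and 224 ± 9.79 CPM with control siRNA (edgeR adjusted p = 0.939). MTA3 was at 48.9 ± 2.39 CPM with LINC01638 siRNA and 49.0 ± 0.400 CPM with control siRNA (edgeR adjusted p = 0.958). SIN3 subunits passed higher in 5 and lower in 6 of 13 cases (median −0.09). ARID4B was higher (0.40), the H3K4-methyl reader ING2 lower (−0.49) and SAP30L lower (−0.34).

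CoREST joins HDAC1 or HDAC2 to the lysine demethylase KDM1A, and its subunits passed higher in 4 and lower in 3 of 10 cases (median 0.05). KDM1A itself stood at 122 ± 3.08 CPM with LINC01638 siRNA and 179 ± 3.49 CPM with control siRNA (log2 fold change −0.55, edgeR adjusted p = 4.36e-09). HMG20B was at 103 ± 3.61 CPM with LINC01638 siRNA and 158 ± 3.39 CPM with control siRNA (−0.61, edgeR adjusted p = 1.40e-09), while GSE1 was higher (0.42). In CoREST the RNA of the demethylase was thus lower while that of HDAC1 was higher. RCOR1 (0.30), RCOR3 (0.48) and RCOR2 (0.61) also passed higher and ZMYM3 (−0.37) lower, all 4 given after their values were seen. In MiDAC, the mitotic deacetylase complex, the scaffold MIDEAS was higher (0.27) and DNTTIP1 lower (−0.29), and the third subunit did not pass.

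NCoR is the complex of HDAC3, and of 4 of its other subunits 2 passed lower and none higher (median −0.13). Of all genes tested 29.6% passed lower and 26.3% higher, and 4 subunits are too few to set apart from these shares. TBL1X, a WD40 subunit, was at 50.5 ± 0.620 CPM with LINC01638 siRNA and 70.4 ± 2.50 CPM with control siRNA (log2 fold change −0.48, edgeR adjusted p = 9.17e-08). For TBL1XR1, its paralogue, the fall was small (−0.16, edgeR adjusted p = 0.0176) and was lost under 6 of the alternatives. With library totals 1 of the 4 passed higher and 1 lower. NCOR1, which binds and activates HDAC3, chosen once its value was known, was at 269 ± 11.1 CPM with LINC01638 siRNA and 259 ± 10.0 CPM with control siRNA and did not pass (edgeR adjusted p = 0.368).

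**Figure D4:**
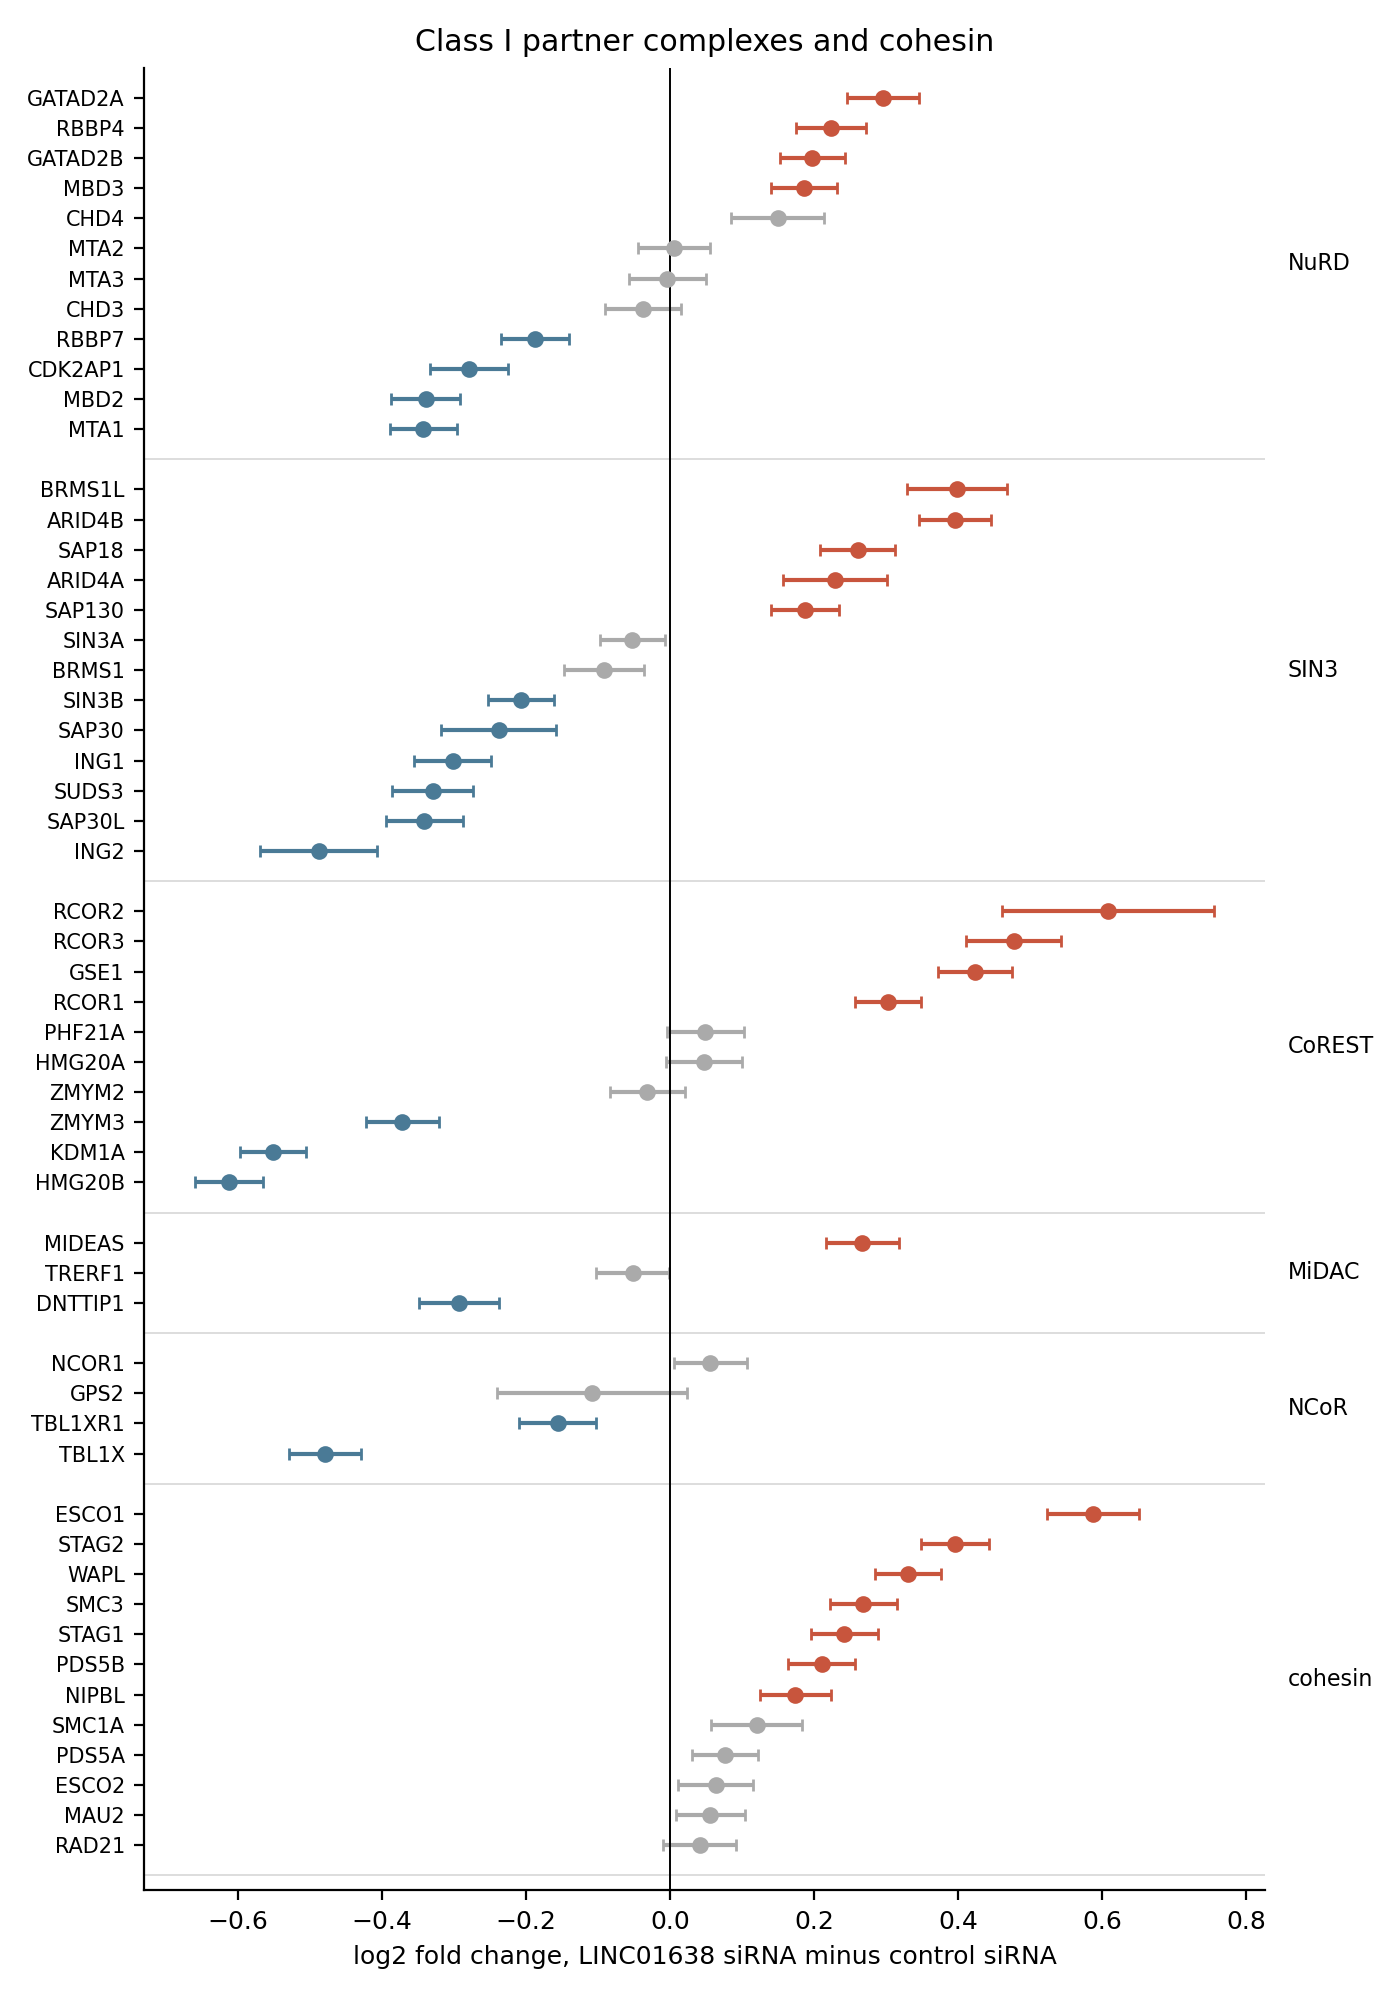
Log2 fold change, LINC01638 siRNA minus control siRNA, of subunits of 5 corepressor complexes and of cohesin genes (points; bars are ± 1 SE from edgeR; red passed higher, blue passed lower, grey did not pass). Corepressor subunits lie on both sides of 0, the 2 NCoR subunits that passed are lower, and the 7 cohesin genes that passed are higher. Of all genes tested 26.3% passed higher and 29.6% lower.

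Inositol phosphates bind between a class I enzyme and its corepressor and raise its activity. Of 6 kinases that make them, 1 passed higher and 2 lower (median −0.16), against 26.3% higher and 29.6% lower of all genes tested. ITPK1 stood at 64.2 ± 1.83 CPM with LINC01638 siRNA and 94.9 ± 2.07 CPM with control siRNA (log2 fold change −0.56, edgeR adjusted p = 5.34e-09), IPMK was lower (−0.28) and IPPK higher (0.21). The IPMK call was lost with library totals (edgeR adjusted p = 0.0689). Casein kinase CK2 phosphorylates HDAC1 and HDAC2, and of its 3 subunits 1 passed, against 56.0% of all genes tested. It was the regulatory CSNK2B (0.55), which has 29.1% of its exon bases shared with another gene on its strand. Neither the 6 kinases nor the 3 subunits are enough to set apart from the shares over all genes.

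Cohesin and its loaders and acetyltransferases are the setting of HDAC8, which removes the acetyl mark that ESCO1 and ESCO2 place on SMC3. Of 12 such genes 7 passed higher and none lower (median 0.19), against 26.3% higher and 29.6% lower of all genes tested. With library totals all 12 passed higher. That scaling shifted the median of all genes by 0.10, and 6349 of all genes tested then passed higher, against 4887 with TMM. STAG2 stood at 246 ± 5.34 CPM with LINC01638 siRNA and 187 ± 3.53 CPM with control siRNA (log2 fold change 0.40). ESCO1 was at 34.2 ± 1.33 CPM with LINC01638 siRNA and 22.8 ± 1.50 CPM with control siRNA (0.59), and the cohesin release factor WAPL was higher (0.33). SMC3, the HDAC8 substrate, chosen once its value was known, was at 202 ± 6.29 CPM with LINC01638 siRNA and 168 ± 3.58 CPM with control siRNA (0.27, edgeR adjusted p = 6.45e-05).

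Genes known from other cells to rise when deacetylases are inhibited did not move together while HDAC1 was higher. Of 8 tested, 4 passed higher and 3 lower (median 0.19), against 26.3% higher and 29.6% lower of all genes tested. A list of 8 is too short to set apart from these shares. The cyclin-dependent kinase inhibitor CDKN1A stood at 419 ± 41.1 CPM with LINC01638 siRNA and 120.5 ± 4.16 CPM with control siRNA (log2 fold change 1.80), and DHRS2, a short-chain dehydrogenase/reductase, at 11.0 ± 0.874 CPM with LINC01638 siRNA and 1.35 ± 0.177 CPM with control siRNA (3.01). RHOB, the small GTPase of the series title, which deacetylase inhibitors raise in other cells, was at 129.9 ± 2.30 CPM with LINC01638 siRNA and 509 ± 41.9 CPM with control siRNA (−1.97, edgeR adjusted p = 8.48e-15). In the same libraries RHOB was thus lower and HDAC1 higher, while CDKN1A and DHRS2 of the same list went with HDAC1. GADD45B (−0.65) and GSN (−0.46), chosen with their values known, were the other members that fell. Of 4 genes known to fall with inhibitors, MYC (−0.72) and CTPS1 (−0.20) were lower, and TYMS (0.17) and CCND1 (0.39, named after its value was seen) were higher. CCND1 was at 35.1 ± 7.59 CPM with LINC01638 siRNA and 26.8 ± 0.754 CPM with control siRNA (edgeR adjusted p = 0.0434). These 4 are likewise too few to set apart from the shares over all genes. Among these 4 genes the number that passed higher was 1 without control siRNA library A or B, and 0 without library C or with counts that ignore strand. TYMS kept its call without control siRNA library A or B, so the call lost there was that of CCND1.

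The genes next to each member were read for change over the neighbourhood. The nearest tested protein-coding neighbours of HDAC1 were both lower. MARCKSL1, 197 bp from its end, was at 56.7 ± 1.69 CPM with LINC01638 siRNA and 71.2 ± 2.87 CPM with control siRNA (log2 fold change −0.33). FAM167B (−0.55), 43230 bp from its start, was at 0.795 CPM with LINC01638 siRNA and 1.17 CPM with control siRNA. On chromosome 6 MARCKS, 69557 bp from HDAC2, was lower (−0.61). FRK on the other side did not pass (0.11, edgeR adjusted p = 0.205), but it lies 1919841 bp away and says little about the neighbourhood. RELL2, which starts 80 bp from HDAC3 on the other strand, did not pass (−0.15, edgeR adjusted p = 0.0658), and DIAPH1 on its other side was higher (0.27). Beside HDAC8, PHKA1, 5615 bp upstream on the same strand, was higher, at 2.80 ± 0.189 CPM with LINC01638 siRNA and 1.45 ± 0.239 CPM with control siRNA (0.96), and PIN4 was slightly lower (−0.20, edgeR adjusted p = 0.0304). The calls of FAM167B and PIN4 were lost under 7 and 8 of the alternatives.

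Transcripts overlapping the members on the opposite strand were few. HDAC2-AS2, an antisense RNA over 69 exon bases of HDAC2, had 47, 30 and 47 counts in LINC01638 siRNA libraries A, B and C, against 15, 13 and 12 in control siRNA libraries A, B and C. It was higher with LINC01638 siRNA (log2 fold change 1.47, SE 0.313, edgeR adjusted p = 0.000499), as HDAC2 was. An antisense gene over 9.20% of the exon bases of HDAC3, ENSG00000228737, had at most 3 counts in any library.

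The gene whose profile over the 6 libraries lay nearest to that of HDAC1 was FLCN (folliculin, a regulator of nutrient signalling), at a Euclidean distance of 0.0513 on centred log2 CPM. PRPF3, a spliceosome component, followed at 0.0827, then FRRS1 at 0.0837, MED12L at 0.0960 and ATOSA at 0.103. Their log2 fold changes lay between 0.98 and 1.11, around the 1.06 of HDAC1. This likeness is a description over 6 libraries in 2 groups, in which any gene with a similar fold change and a small spread lies near.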

How the data were processed

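The deposited counts are whole numbers of reads per gene without normalization, in 1 table per library, made per the submitters' processing notes with STAR 2.7.10b and R 4.2.1 on GRCh38 (hg38); for settings and annotation release, nothing is stated in the sources used here. The reverse-strand column was used, as it fits the directional kit. Rows without a gene were left out. They held unmapped reads (13.0% with LINC01638 siRNA and 12.3% with control siRNA) and reads outside exons of that strand. They also held reads hitting more than 1 gene (7.17% of those mapped with LINC01638 siRNA and 7.49% with control siRNA) and mapping to several places (0). Symbols matched 61918 identifiers exactly and 707 without their version. Lengths and positions came from GENCODE 29, possibly another release than that used for counting, and upstream sequences from RefSeq (GRCh38.p14).

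Counts were filtered with filterByExpr (minimum count 10, minimum total 15), which kept 18569 genes, scaled by TMM and tested with edgeR 4.0.16 (robust quasi-likelihood F test, R 4.3.3) with Benjamini-Hochberg adjustment over all genes and a 0.05 threshold. Each log2 fold change sets LINC01638 siRNA over control siRNA, with the SE taken as the log2 fold change over the root of F and 95% intervals by the normal quantile. The common biological coefficient of variation was 5.62%. Class totals, shares and ratios were compared over libraries by exact two-sided permutation. Between replicates of a group, the chi-square of the counts per gene was 5.94 to 16.5, above sampling noise, so all 6 libraries were kept. The members, gene lists and tests were chosen with earlier results of these data known, so lists are described by counts and medians. Named list genes are up to 3 per list with the lowest p past the threshold; others are said to be chosen after their values were seen, and 2 list genes are not reported here. The scripts were tested on simulated data. Alternatives were DESeq2 1.42.0, limma-voom (limma 3.58.1), 2 other scalings, 2 filters, a replicate block, counts that ignore strand, protein-coding genes only, other gene lengths and leaving out each library; the length without shared exon bases was added after seeing the data.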

Additional observations from a re-analysis of the deposited data

Results flagged for a closer look

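Reads on the strand opposite to HDAC1, in a column that the comparisons do not use, differed between the groups. They came to 126, 122 and 114 counts in LINC01638 siRNA libraries A, B and C, against 42, 44 and 65 counts in control siRNA libraries A, B and C. Their level was 2.18 ± 0.250 CPM with LINC01638 siRNA and 1.01 ± 0.219 CPM with control siRNA (SD, n = 3 each). As a share of the HDAC1 counts on both strands they were 0.916% with LINC01638 siRNA and 0.880% with control siRNA, and the groups overlapped. Over all genes the opposite strand held 6.66% of the stranded counts with LINC01638 siRNA and 6.47% with control siRNA. For HDAC2, HDAC3 and HDAC8 the share on the opposite strand was at most 0.534% in any library.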

How the results depend on the processing

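All 4 members kept their direction and their call under each of the 9 alternatives with all libraries and the 6 that left out 1. The log2 fold change of HDAC1 lay between 1.01 and 1.16 with all libraries and between 1.04 and 1.08 with 1 left out. The same ranges were 0.24 to 0.38 and 0.24 to 0.33 for HDAC2, −0.44 to −0.30 and −0.44 to −0.35 for HDAC3, and 0.48 to 0.63 and 0.39 to 0.61 for HDAC8. By the longest transcript the log2 difference of the class total was 0.51 and the differences in share were 20.5 percentage points for HDAC1, −2.13 for HDAC2 and −18.4 for HDAC3. By coding length they were 0.46, 15.9, −4.78 and −11.3, with 0.147 for HDAC8, and with no length 0.48, 15.8, −5.42 and −10.4, with 0.0975 for HDAC8. The share of HDAC8, whose groups overlap, thus has no settled direction. In counts that ignore strand the differences in share were 17.9 for HDAC1, −4.07 for HDAC2 and −13.7 for HDAC3, whose counts were there 81.0% to 82.6% of its strand-specific counts. With library totals the log2 difference of the class total was 0.70.

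With library totals 6349 genes passed higher and 4288 lower, so that 59.7% of calls were higher, against 47.0% with TMM. That scaling also ended the calls of IPMK, CTPS1, TBL1XR1, FAM167B and PIN4 and made FRK pass. TBL1XR1 was lost too with the stricter filter, with protein-coding genes only and without LINC01638 siRNA library A or C or control siRNA library C (adjusted p 0.0546 to 0.114 there). TYMS was lost without control siRNA library C or in counts that ignore strand, and VWF without LINC01638 siRNA library C.

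The correlations of deviations between same-lettered libraries were −0.0753, −0.0203 and −0.0177, and those between different letters ran from −0.0317 to 0.0512. The same-lettered libraries were thus no more alike than the others. With 3 libraries per group this cannot settle whether libraries of a letter were handled together. With the letter as a block, 4676 genes passed higher and 5286 lower, and the log2 fold changes were 1.06 for HDAC1, 0.28 for HDAC2, −0.40 for HDAC3 and 0.52 for HDAC8. Depth limits HDAC8 most, with 390 to 874 counts per library.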
